A study of Mus musculus with 20 samples.

Results

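The 29 genes described here encode splicing factors, RNA helicases and other RNA-binding proteins. They are all the genes of the deposited mouse kidney table, 29 of 6025, whose symbols begin with Srsf, Hnrnp, Snrp, Sf3a, Sf3b or Prpf, or with Ddx, Dhx, Rbm or Lsm followed by a digit. They comprise 1 SR protein (Srsf7), 2 hnRNP proteins (Hnrnpab and Hnrnpdl), 5 genes of Sm or other snRNP proteins (Snrpa1, Snrpd1, Snrpf, Snrpg and Snrpn), 2 LSm proteins (Lsm7 and Lsm11) and 2 subunits of splicing factor SF3b (Sf3b3 and Sf3b4). The rest are 2 PRPF factors (Prpf38a and Prpf38b), 6 helicases (Ddx10, Ddx21, Ddx39, Ddx58, Ddx59 and Dhx58) and 9 RBM genes (Rbm3, Rbm4b, Rbm15, Rbm15b, Rbm19, Rbm25, Rbm27, Rbm38 and Rbm43). Symbol prefixes do not follow function exactly: Snrnp70 and Snrnp25, which encode snRNP proteins under another prefix, are outside the rule, and Ddx58 and Dhx58 are sensors of viral RNA.

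Introns are removed from pre-mRNA by the spliceosome, an assembly of small nuclear RNAs (snRNAs) and proteins that forms anew on each intron. Sm proteins form a ring around most of these snRNAs, SF3b helps the U2 particle to grip the branch point, and SR and hnRNP proteins bound to the pre-mRNA steer which sites are used. DEAD-box (DDX) and DEAH-box (DHX) helicases use ATP to remodel RNA in splicing, export, ribosome assembly and the sensing of foreign RNA. The kidney cortex consists mostly of proximal tubule, a segment that is commonly hurt when blood flow stops, when muscle pigment is filtered or when cisplatin is taken up.

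Each of 20 libraries came from the kidney of 1 mouse, and all mice were C57BL/6 (C57BL/6J in the extraction protocol), of WT genotype and 8 weeks old. The groups were control (n = 8, labelled mock, and called mock and vehicle in the series design), ischemia-reperfusion injury (IRI, 24 h, n = 4), rhabdomyolysis (breakdown of skeletal muscle, 24 h, n = 4) and cisplatin (a platinum chemotherapy drug, 72 h, n = 4). How long ischemia lasted, what induced rhabdomyolysis, the cisplatin dose, the sex of the mice and which controls received vehicle are not given in the sources used here. RNA was taken from cortex, and polyadenylated RNA was sequenced from stranded libraries. Library identifiers fall into 2 ranges: controls 1 to 4 share a range with IRI, and controls 5 to 8 share the other with rhabdomyolysis and cisplatin. Each injury was therefore set against the 4 controls of its own range. The interval from injury to sampling differs between cisplatin and the others, so agent and time cannot be told apart in those comparisons.

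Values are CPM as deposited: reads of a gene divided by the library's effective size in M (mega) reads, a size whose definition is not given in the sources used here. Whole reads could be recovered in 19 libraries. Genes of the table held 3.48 to 5.40 M of these reads in each. Behind the members' values stood at least 6 reads for Dhx58, the thinnest, and at least 1544 for Hnrnpab, the deepest. Each gene of the table was at least 1.5-fold from the control mean (n = 8) in 1 or more injuries. A splicing or helicase gene that did not change is therefore not among the 29, and that most members were called in some injury follows from how the table was made. That choice did not fix the direction of change, but it favours large changes. Of the 29, 22 met the 1.5-fold in more than 1 injury. Hnrnpab, Prpf38b, Ddx10, Rbm15b, Rbm19 and Rbm27 met it in rhabdomyolysis alone, Dhx58 in cisplatin alone and none in IRI alone. For these 7, being higher in that injury than in the others was favoured by the choice, so their differences between injuries are given as descriptions. The 12 proximal tubule markers identified the tissue at 35006 to 58946 summed CPM in controls, against 10593 to 17029 in IRI, 9438 to 11161 in rhabdomyolysis and 4363 to 8054 in cisplatin, and 11, 12 and 12 of them fell. Genes in the table made up 55.3% to 70.6% of the authors' library size in controls and 42.1% to 48.3% in injured kidneys. Both shifts were seen in each injury, and their part in the increases below was not tested. In bulk tissue, fewer cells of a type and less RNA per cell cannot be told apart.

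Most of the 29 genes were higher in injured kidneys. At an adjusted p under 0.05 (limma, all 5672 tested genes), 21 members rose in IRI and 2 fell, where 80.7% of all tested genes were called, 40.6% as higher and 40.1% as lower. In rhabdomyolysis, 25 members rose and 3 fell, where 95.3% of all tested genes were called (48.8% higher, 46.5% lower). In cisplatin, 23 rose and 3 fell, where 91.8% were called (47.8% higher, 44.0% lower). The members thus leaned to the higher side, while the called genes of the whole table were split nearly evenly. Their median change was 0.48 in IRI, 1.08 in rhabdomyolysis and 0.69 in cisplatin, in log2(CPM + 1), against 0.08, 0.31 and 0.30 over all tested genes. The rhabdomyolysis median includes the 6 genes that entered the table through it alone. Over the 22 genes that met the 1.5-fold in more than 1 injury, the medians were 0.60, 1.07 and 0.69, against 0.02, 0.13 and 0.22 over the 5140 tested genes that did so. Of these 22, 17, 19 and 18 rose and 2, 3 and 3 fell.

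The same 18 genes rose in all 3 injuries, and Ddx59 and Rbm4b fell in all 3. Over all tested genes, 35.3% rose and 36.9% fell in all 3 injuries. Of the 18, 2 bind pre-mRNA as hnRNP proteins, 1 is an SR protein, 4 are snRNP proteins, 1 is an LSm protein, 1 is an SF3b subunit, 2 are PRPF factors, 3 are helicases and 4 are RBM genes. Lsm11, Rbm15b and Rbm19 rose in IRI and rhabdomyolysis. Sf3b4, Ddx10, Rbm25 and Rbm27 rose in rhabdomyolysis and cisplatin. Dhx58 was called in cisplatin alone among the 3 injuries, and Snrpn fell in rhabdomyolysis and cisplatin. With the main settings, no member was called in opposite directions in different injuries. Under quantile normalization, Dhx58 was called lower in IRI (-0.50, limma adjusted p = 0.0402) and higher in cisplatin (0.66, adjusted p = 0.0071). The 4 values of an injury lay outside the range of all 8 controls for 19 members in IRI, 28 in rhabdomyolysis and 18 in cisplatin, against 64.8%, 85.0% and 78.7% of all tested genes. Among the 3 injuries, the mean was highest in rhabdomyolysis for 20 of the 29, which include all 6 genes chosen through it alone and Rbm4b, which was below the controls there. It was highest in rhabdomyolysis for 14 of the other 22, or 63.6%, against 34.4% of the 5140 tested genes that met the 1.5-fold in more than 1 injury. That comparison was not limited to genes that rose, and 19 of these 22 members were called higher in rhabdomyolysis.

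**Figure D1:**
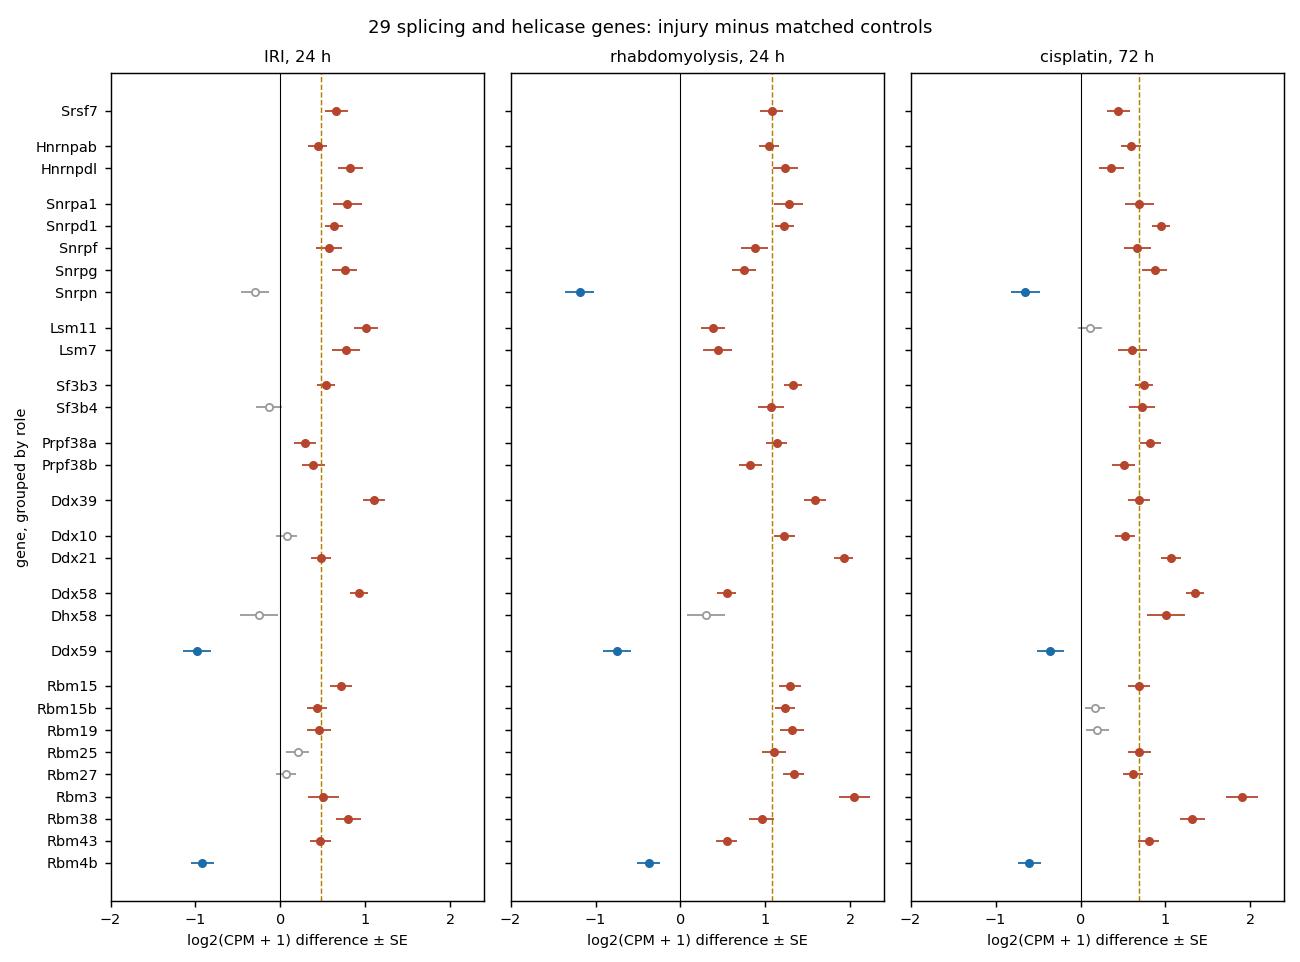
Change of each of the 29 genes in IRI (24 h), rhabdomyolysis (24 h) and cisplatin (72 h). Points are differences in log2(CPM + 1) from the 4 matched controls and bars are SE (4 injured libraries each). Red is called higher, blue called lower and open grey not called at a limma adjusted p under 0.05, and the dashed line is the median of the 29, which is farthest right in rhabdomyolysis (1.08).

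Each injured library showed the rise. The median log2 ratio of the 29 genes to their matched controls was 0.44 to 0.52 in the 4 IRI libraries, 0.96 to 1.11 in rhabdomyolysis and 0.55 to 0.75 in cisplatin. It lay between -0.09 and 0.14 in the 8 controls. Over the 22 genes that met the 1.5-fold in more than 1 injury it was 0.50 to 0.64, 0.95 to 1.09 and 0.51 to 0.87, so that IRI and cisplatin overlapped and rhabdomyolysis lay above both. Leukocyte markers (10 of 14 listed are in the table, 9 were tested) were called higher for 6, 8 and 7 genes in IRI, rhabdomyolysis and cisplatin, and 1 of them, the macrophage receptor Csf1r, was called lower in each. Their summed level was 72.1 to 96.9 CPM in controls, 87.9 to 118 in IRI, 94.1 to 221 in rhabdomyolysis and 167 to 232 in cisplatin. Proliferation markers (8 of 14) were called higher for 7, 5 and 4 genes, and 1 fell in rhabdomyolysis. They summed to 70.3 to 91.1 CPM in controls, 129 to 194 in IRI, 142 to 168 in rhabdomyolysis and 114 to 136 in cisplatin. Endothelial and podocyte markers (4 of 9) rose for 3, 4 and 4 genes, from 202 to 489.7 CPM in controls to 446 to 567, 816 to 1127 and 505 to 683, and the 6 of 9 distal nephron markers in the table fell in each injury. None of the listed markers in the table was at 0 in all controls, and each is in the table through a 1.5-fold change in some injury. Rhabdomyolysis replicates 1 to 4 had summed leukocyte levels of 221, 132, 211 and 94.1 CPM, and their medians over the 29 were 0.96, 1.09, 1.11 and 1.09. The part of other cell types in the changes was not tested beyond these values.

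**Figure D2:**
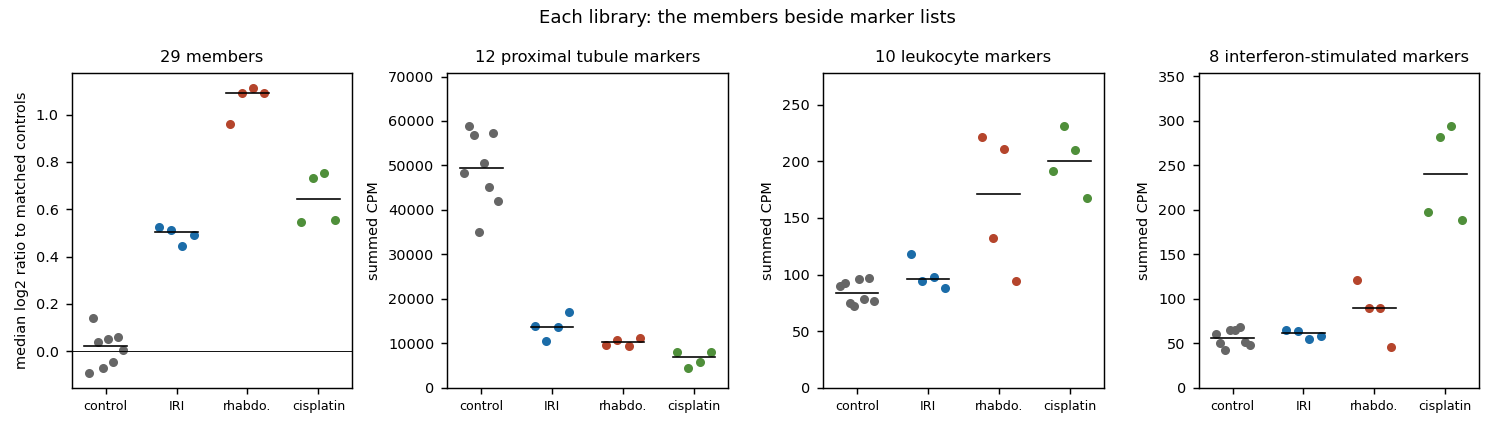
Each point is 1 library, and the black line is the group median. The left panel gives the median log2 ratio of the 29 genes to the matched controls, and the others give summed CPM of proximal tubule, leukocyte and interferon-stimulated markers. Member medians are above the controls in every injured library, and the 29 include 6 genes chosen through rhabdomyolysis alone and 1 through cisplatin alone. Leukocyte sums in rhabdomyolysis spread from 94.1 to 221 CPM.

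Among the proteins that choose splice sites, Srsf7, an SR protein that binds exons and promotes their inclusion, rose in all 3 injuries. It ranged from 27.5 to 40.5 CPM in the controls (median 31.2) and read 50.7, 65.5, 53.3 and 51.6 in IRI replicates 1 to 4. It read 75.4, 66.8, 72.3 and 62.9 in rhabdomyolysis and 40.6, 52.6, 46.7 and 38.7 in cisplatin. IRI and rhabdomyolysis lay above every control, and 1 cisplatin library lay within the control range. The differences were 0.66, 1.08 and 0.45 in log2(CPM + 1) (SE 0.13 each, adjusted p = 0.000152, 1.2e-07 and 0.00381).

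Hnrnpdl, a relative of hnRNP D, ranged from 38.8 to 54.0 CPM in the controls (median 48.0). It read 78.3, 82.7, 65.9 and 97.7 in IRI, 106, 102, 101 and 150.3 in rhabdomyolysis and 52.1, 65.8, 70.3 and 58.7 in cisplatin. All rhabdomyolysis libraries were above all IRI libraries, and cisplatin replicate 1 was within the control range. It rose by 0.82, 1.24 and 0.36 (SE 0.15 each, adjusted p = 4.33e-05, 7.52e-08 and 0.0272). The cisplatin call was lost without control 7 or 8 or cisplatin 2 or 3 (adjusted p = 0.0944, 0.0609, 0.0646 and 0.087). Hnrnpab, an hnRNP that also travels with mRNA in the cytoplasm, ranged from 248 to 378 CPM in the controls (median 283). It read 432, 406, 422 and 441 in IRI, 519, 569, 579 and 587 in rhabdomyolysis and 392, 443, 424 and 391 in cisplatin. Every injured library lay above every control, and rhabdomyolysis lay above both other injuries. Its rises of 0.44, 1.04 and 0.59 (SE 0.11 each, adjusted p = 0.00149, 1.63e-08 and 5.58e-05) were larger under quantile normalization, at 0.92, 1.61 and 1.00.

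Of the Sm and snRNP genes, 4 rose in every injury. Snrpd1, a protein of the Sm ring, ranged from 23.1 to 31.2 CPM in the controls (median 24.96). It read 45.8, 46.8, 43.2 and 37.2 in IRI, 58.5, 59.1, 60.7 and 52.6 in rhabdomyolysis and 40.7, 49.3, 47.5 and 53.2 in cisplatin. All 12 injured libraries were above all controls, with differences of 0.63, 1.22 and 0.95 (SE 0.11 each, adjusted p = 2.16e-05, 5.78e-10 and 5.64e-08). Snrpg, in the same ring, ranged from 14.1 to 20.0 CPM in the controls (median 16.1). It read 27.7, 35.8, 28.2 and 26.7 in IRI, 28.8, 25.4, 27.5 and 26.8 in rhabdomyolysis and 21.9, 29.1, 32.6 and 37.2 in cisplatin. The 3 injuries overlapped one another but not the controls, and Snrpg rose by 0.76, 0.75 and 0.88 (SE 0.15 each, adjusted p = 8.24e-05, 5.25e-05 and 9.77e-06). None of the tests between injuries called Snrpg: rhabdomyolysis minus cisplatin was -0.13 (SE 0.15, adjusted p = 0.478).

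Snrpa1, the A-prime protein of the U2 particle, ranged from 12.5 to 24.9 CPM in the controls (median 16.2). It read 28.5, 30.8, 31.3 and 32.1 in IRI, 40.2, 35.3, 41.8 and 39.4 in rhabdomyolysis and 21.0, 33.2, 27.5 and 22.8 in cisplatin. IRI and rhabdomyolysis did not overlap the controls or each other, and 2 cisplatin libraries lay within the control range. It rose by 0.79, 1.28 and 0.69 (SE 0.17 each, adjusted p = 0.000284, 3.42e-07 and 0.000733). Snrpa1 shares 3269 annotated bases with the gene Gm45213 on the same strand, so reads from them cannot be told apart with certainty. The remaining Sm ring gene, Snrpf, rose by 0.57 to 0.87 over the 3 injuries.

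Snrpn encodes SmN, a relative of the Sm B protein that is expressed from the paternal chromosome and best known in brain. It ranged from 21.0 to 42.8 CPM in the controls (median 29.2). It read 26.2, 23.8, 24.3 and 21.4 in IRI, 13.6, 14.7, 10.5 and 11.7 in rhabdomyolysis and 20.1, 16.9, 15.6 and 22.9 in cisplatin. IRI lay within the control range, rhabdomyolysis lay below every other library, and 1 cisplatin library was within the control range. It fell by 1.19 in rhabdomyolysis (SE 0.17, adjusted p = 8.7e-07) and by 0.65 in cisplatin (adjusted p = 0.0012). The IRI difference was -0.30 (adjusted p = 0.105), and the IRI effect minus the rhabdomyolysis effect was 0.89 (SE 0.24, adjusted p = 0.00407). Snrpn shares 9601 annotated bases with Snurf and 22570 with the protein-coding gene Gm38393, both on the same strand, so reads from them cannot be told apart with certainty. Gm38393 was not analysed here. Snurf had a median of 1.24 CPM and a highest value of 5.55 in controls, and it was not called in any injury (adjusted p = 0.0659, 0.282 and 0.825).

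Both LSm genes had their highest injured mean in IRI. Lsm11, a subunit of the U7 particle that trims the 3′ ends of histone pre-mRNAs, ranged from 3.48 to 7.04 CPM in the controls (median 4.85). It read 8.79, 10.8, 9.19 and 9.95 in IRI, 8.51, 9.06, 7.51 and 8.52 in rhabdomyolysis and 6.42, 6.06, 7.93 and 6.88 in cisplatin. IRI and rhabdomyolysis lay above every control, while 3 cisplatin libraries lay within the control range. It rose by 1.01 in IRI (SE 0.14, adjusted p = 1.43e-06) and 0.38 in rhabdomyolysis (adjusted p = 0.0129). Cisplatin gave 0.11 (adjusted p = 0.429). Lsm11 averaged 4.33 CPM in the controls of the IRI range and 6.26 in those of the other range (limma unadjusted p = 0.00448, adjusted p = 0.454). With all 8 controls pooled, its rise was 0.60 in rhabdomyolysis (adjusted p = 0.00038; edgeR gave 0.60, adjusted p = 0.00169) and 0.33 in cisplatin (adjusted p = 0.0304). The rhabdomyolysis call was lost under quantile normalization (0.24, adjusted p = 0.0919) and without control 7 (0.28, adjusted p = 0.0651).

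Lsm7, shared by the ring on U6 snRNA and the ring that promotes mRNA decapping, ranged from 5.92 to 11.2 CPM in the controls (median 9.01). It read 19.4, 15.6, 14.1 and 12.2 in IRI, 12.4, 12.8, 14.7 and 11.7 in rhabdomyolysis and 12.5, 12.5, 16.1 and 18.1 in cisplatin. All 12 injured libraries were above all controls and the injuries overlapped. It rose by 0.77, 0.44 and 0.61 (SE 0.17 each, adjusted p = 0.000309, 0.0179 and 0.00197). Quantile normalization ended the call in rhabdomyolysis (0.34, adjusted p = 0.0671) and cisplatin (0.36, adjusted p = 0.0536), and so did leaving out control 6 or rhabdomyolysis 3 for rhabdomyolysis (adjusted p = 0.052 and 0.0562).

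Both SF3b subunits rose in rhabdomyolysis and cisplatin, and Sf3b3 rose in IRI as well. Sf3b3, which holds the branch point pocket of SF3b in place, ranged from 42.0 to 54.0 CPM in the controls (median 46.9). It read 65.4, 71.8, 65.3 and 64.7 in IRI, 109, 118, 135 and 124 in rhabdomyolysis and 70.5, 91.0, 92.7 and 72.6 in cisplatin. All injured libraries exceeded all controls, and rhabdomyolysis exceeded both other injuries, with rises of 0.53, 1.32 and 0.75 (SE 0.11 each, adjusted p = 0.000139, 1.49e-10 and 1.49e-06). Sf3b4, which binds pre-mRNA upstream of the branch point, ranged from 40.4 to 68.4 CPM in the controls (median 52.5). It read 61.1, 45.7, 51.1 and 43.8 in IRI, 91.5, 104, 120.4 and 115 in rhabdomyolysis and 77.3, 91.7, 85.9 and 81.9 in cisplatin. Every IRI library lay within the control range, and every rhabdomyolysis and cisplatin library lay above it. The rises were 1.07 and 0.72 (SE 0.15 each, adjusted p = 9.48e-07 and 0.000171), and IRI gave -0.14 (adjusted p = 0.408). The IRI effect on Sf3b4 was below the rhabdomyolysis effect by 1.21 and below the cisplatin effect by 0.86 (SE 0.22 each, adjusted p = 0.00011 and 0.00469). Whether Sf3b3 and Sf3b4 differed from each other was not tested.

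Prpf38a, which takes part in activating the assembled spliceosome, ranged from 15.5 to 25.8 CPM in the controls (median 18.1). It read 24.8, 22.1, 29.9 and 25.4 in IRI, 40.7, 43.3, 39.4 and 36.3 in rhabdomyolysis and 29.5, 32.2, 33.8 and 32.7 in cisplatin. Rhabdomyolysis was above cisplatin, cisplatin was above the controls, and 3 of 4 IRI libraries lay within the control range. It rose by 1.13 and 0.82 in rhabdomyolysis and cisplatin (SE 0.13 each, adjusted p = 2.45e-08 and 3.65e-06). The IRI rise of 0.29 (adjusted p = 0.0411) was lost without control 2, 3 or 4 or IRI 1, 3 or 4 (adjusted p between 0.054 and 0.203) and under quantile normalization (adjusted p = 0.157). Prpf38b, its relative, ranged from 32.7 to 47.2 CPM in the controls (median 41.4). It read 55.3, 54.9, 45.6 and 49.8 in IRI, 74.6, 91.0, 77.2 and 57.7 in rhabdomyolysis and 63.4, 63.9, 60.1 and 50.8 in cisplatin. Only IRI replicate 3 of the 12 injured libraries fell within the control range. Prpf38b rose by 0.39, 0.82 and 0.51 (SE 0.14 each, adjusted p = 0.0131, 6.75e-06 and 0.00157), and the IRI call was lost without control 3 (adjusted p = 0.0577).

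**Figure D3:**
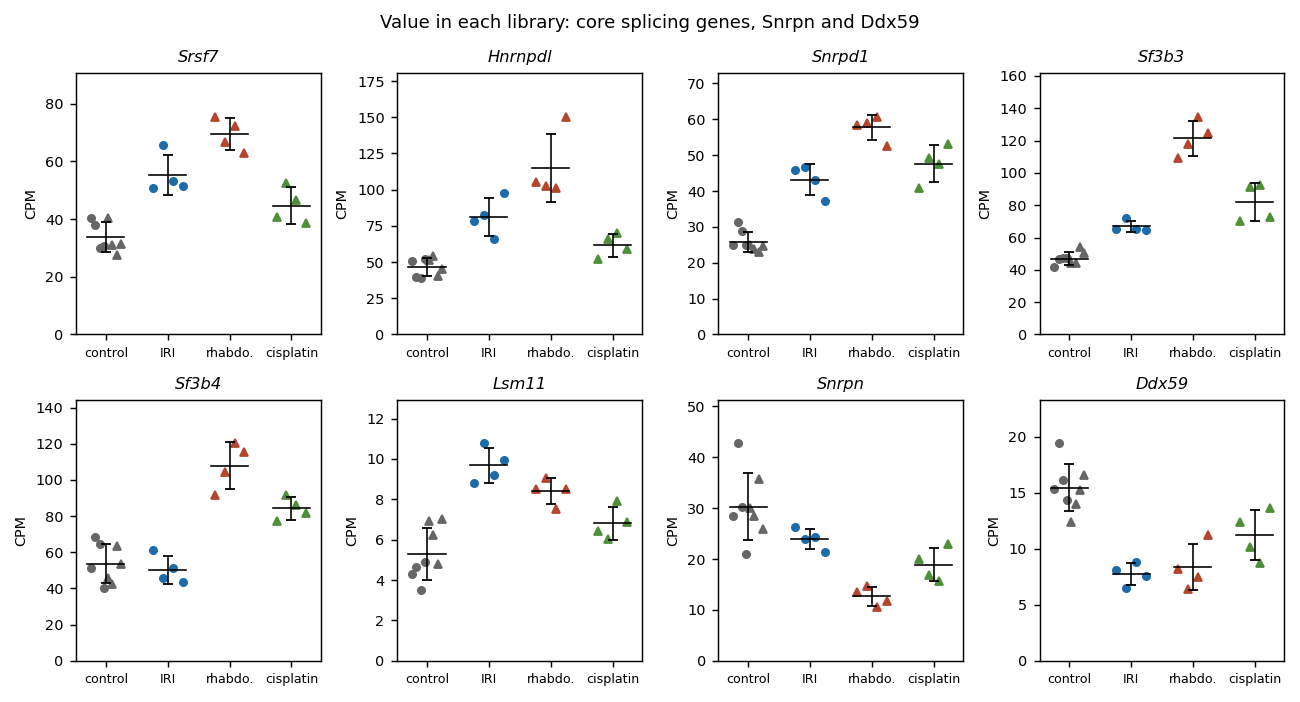
CPM in each library for 8 genes. Circles are libraries of the identifier range that holds IRI, triangles those of the range that holds rhabdomyolysis and cisplatin, and black lines and bars are group means ± SD (n = 8 controls, 4 per injury). Sf3b4 in IRI stays at control values, Snrpn is lowest in rhabdomyolysis (10.5 to 14.7 CPM), and Ddx59 is lower in IRI and rhabdomyolysis than in every control.

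Helicases of export and of the nucleolus, where ribosomes are assembled, rose in rhabdomyolysis and in cisplatin. Ddx39 and Ddx21 had the larger rise in rhabdomyolysis, and so did Ddx10, which was chosen through it alone. Ddx39 (chr8:83715177-83726892, GRCm38), a helicase of mRNA export, ranged from 16.1 to 23.6 CPM in the controls (median 20.4). It read 42.9, 38.2, 46.4 and 45.2 in IRI, 58.9, 61.5, 65.4 and 68.2 in rhabdomyolysis and 28.8, 36.6, 39.4 and 30.5 in cisplatin. No injured library overlapped the controls, and rhabdomyolysis stood above both other injuries. Ddx39 rose by 1.10, 1.59 and 0.69 (SE 0.13 each, adjusted p = 1.94e-07, 2.06e-10 and 5.4e-05), which in mean CPM was 2.18-fold, 3.10-fold and 1.65-fold.

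Ddx21 (chr10:62580251-62602281), which acts in ribosomal RNA transcription and processing, ranged from 44.1 to 62.2 CPM in the controls (median 53.5). It read 88.2, 78.2, 72.3 and 81.6 in IRI, 169.6, 192, 192 and 219 in rhabdomyolysis and 90.7, 114, 124 and 99.1 in cisplatin. The 4 groups did not overlap, in the order control, IRI, cisplatin and rhabdomyolysis. It rose by 0.48, 1.92 and 1.07 (SE 0.12 each, adjusted p = 0.000758, 1.1e-12 and 2.36e-08), or 1.40-fold, 3.84-fold and 2.12-fold in mean CPM. Ddx10, another helicase of ribosome assembly, ranged from 10.7 to 19.1 CPM in the controls (median 16.6). It read 19.1, 19.4, 16.4 and 18.1 in IRI, 29.9, 33.8, 32.3 and 33.9 in rhabdomyolysis and 20.1, 19.1, 21.6 and 17.8 in cisplatin. Only rhabdomyolysis lay wholly above the controls. Ddx10 rose by 1.22 in rhabdomyolysis and 0.52 in cisplatin (SE 0.12 each, adjusted p = 3.95e-09 and 0.00045), and IRI gave 0.07 (adjusted p = 0.582). Its control means in the 2 identifier ranges were 17.3 and 13.5 CPM (unadjusted p = 0.0089, adjusted p = 0.518). With all controls pooled, the cisplatin rise was 0.35 (adjusted p = 0.0104) and the IRI value was 0.25 (adjusted p = 0.0622). Under quantile normalization they were 0.31 (adjusted p = 0.0236) and -0.05 (adjusted p = 0.711).

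Rbm19 acts with these helicases in making ribosomes and is needed to process ribosomal RNA. It ranged from 12.4 to 18.7 CPM in the controls (median 16.01). It read 22.3, 21.4, 21.0 and 22.4 in IRI, 34.1, 39.4, 48.8 and 38.5 in rhabdomyolysis and 17.3, 19.7, 19.9 and 15.01 in cisplatin. IRI and rhabdomyolysis were above every control and above every cisplatin library, and 2 cisplatin libraries were within the control range. It rose by 0.46 and 1.32 (SE 0.14 each, adjusted p = 0.0052 and 9.87e-09), and cisplatin gave 0.20 (adjusted p = 0.175), with 0.0044 under quantile normalization and 0.11 without control 6.

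Rbm15 and Rbm15b guide the enzyme complex that places N6-methyladenosine on RNA. Rbm15 ranged from 5.65 to 9.67 CPM in the controls (median 7.16). It read 10.9, 10.9, 11.4 and 13.2 in IRI, 20.0, 19.7, 20.2 and 21.1 in rhabdomyolysis and 12.8, 13.5, 13.3 and 12.6 in cisplatin. The rhabdomyolysis libraries were tightly grouped and above all others, and all injured libraries exceeded the controls. Rbm15 rose by 0.71, 1.29 and 0.69 (SE 0.13 each, adjusted p = 5.21e-05, 5.78e-09 and 5.31e-05), and the cisplatin rise was 0.44 under quantile normalization. Rbm15b (chr9:106880918-106887428) ranged from 10.6 to 16.5 CPM in the controls (median 13.2). It read 17.2, 17.0, 15.8 and 14.3 in IRI, 36.2, 33.6, 37.9 and 35.2 in rhabdomyolysis and 16.2, 18.6, 16.6 and 15.1 in cisplatin. Rhabdomyolysis stood apart, while 2 IRI and 2 cisplatin libraries were within the control range. Rbm15b rose by 0.43 in IRI and 1.23 in rhabdomyolysis (SE 0.12 each, adjusted p = 0.00195 and 1.5e-09). Cisplatin gave 0.17 (adjusted p = 0.168), which was called with all controls pooled (0.32, adjusted p = 0.0103) and with 75th percentile scaling (0.25, adjusted p = 0.0489). The IRI rise was 0.28 with pooled controls and under quantile normalization (adjusted p = 0.0278 and 0.0308).

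A limit bears on Rbm15b in particular. The annotation places Manf, a gene of the endoplasmic reticulum stress response, over all 6511 bases of Rbm15b on the same strand, so reads from them cannot be told apart with certainty. Manf averaged 59.7 CPM in controls, 88.9 in IRI, 246 in rhabdomyolysis and 77.2 in cisplatin. It changed by 0.54, 2.11 and 0.45, so Manf too was highest in rhabdomyolysis. The share of Rbm15b reads that could come from Manf was not tested.

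The promoters of Rbm15b and Rbm19, both in the table through rhabdomyolysis alone, are shown because both hold the E-box CACGTG. The windows run from 250 bases before to 50 after the RefSeq gene start, 5′ to 3′ on the gene's strand (GRCm38.p6), and capitals mark CACGTG. The Rbm15b window is chr9:106887026-106887325 (minus strand), and the Rbm19 window is chr5:120116263-120116562 (plus strand).
Rbm15b: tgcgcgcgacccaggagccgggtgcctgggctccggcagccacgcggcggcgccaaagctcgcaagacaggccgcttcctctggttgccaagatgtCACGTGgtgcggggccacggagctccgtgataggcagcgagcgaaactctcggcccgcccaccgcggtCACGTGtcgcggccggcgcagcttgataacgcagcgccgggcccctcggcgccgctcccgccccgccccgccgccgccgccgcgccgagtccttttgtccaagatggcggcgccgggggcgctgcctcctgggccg
Rbm19: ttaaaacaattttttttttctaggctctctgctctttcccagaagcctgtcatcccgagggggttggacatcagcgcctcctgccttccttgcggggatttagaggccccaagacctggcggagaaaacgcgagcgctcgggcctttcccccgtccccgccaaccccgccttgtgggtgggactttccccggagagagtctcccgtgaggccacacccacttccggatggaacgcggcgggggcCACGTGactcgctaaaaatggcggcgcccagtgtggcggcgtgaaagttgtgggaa
Rbm15b has the E-box at 154 and 86 bases before the start, and Rbm19 has it at 6 bases before. CACGTG, which reads the same on both strands, occurs in 7.15% of all 32817 RefSeq windows of this length. Of the 23 members with a window, 3 hold it, and the other is Rbm43. The ETS core CCGGAAGT, searched on both strands, was found in the Rbm19 window and in 3.89% of all windows. Member windows had a median GC content of 59.3%, against 52.7% over all windows. A match describes the letters and shows no binding.

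Rbm3, a protein induced by cold and by other stresses that binds mRNA and ribosomes, had the largest rise of the 29 against matched controls in rhabdomyolysis and in cisplatin. It lies at chrX:8138975-8145880 and ranged from 78.5 to 169 CPM in the controls (median 111). It read 219.9, 144, 183 and 286 in IRI, 373, 379, 271 and 505 in rhabdomyolysis and 367, 362, 294 and 328 in cisplatin. All rhabdomyolysis and cisplatin libraries were above all controls, and IRI replicate 2 was within the control range. Rbm3 rose by 2.05 in rhabdomyolysis and 1.90 in cisplatin (SE 0.18 each, adjusted p = 7.54e-10 and 4.53e-09), or 4.25-fold and 3.75-fold in mean CPM. Rhabdomyolysis minus cisplatin was 0.15 (SE 0.18, adjusted p = 0.516), which was not called. In IRI the rise was 0.50 (adjusted p = 0.0167). It was lost without control 4 (0.41, adjusted p = 0.0602) or without IRI 4 (0.34, adjusted p = 0.0917). The controls of the IRI range averaged 144 CPM and the others 89.96 (log2 difference 0.66, SE 0.18, unadjusted p = 0.00169, adjusted p = 0.354). With all 8 controls pooled, the IRI rise was 0.83 (adjusted p = 0.000518), the rhabdomyolysis rise was 1.72, below that of Ddx21 (1.83), and the cisplatin rise was 1.57. In IRI, quantile normalization gave 0.80 (adjusted p = 0.000392).

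Rbm38, a target of p53 that regulates mRNA stability, and Rbm43 had their highest mean in cisplatin. Rbm38 ranged from 4.84 to 7.35 CPM in the controls (median 5.82). It read 11.9, 10.3, 9.76 and 8.81 in IRI, 10.4, 13.1, 13.3 and 16.7 in rhabdomyolysis and 15.6, 19.3, 15.6 and 18.7 in cisplatin. No injured library overlapped the controls, and cisplatin lay above IRI. It rose by 0.80, 0.96 and 1.32 (SE 0.15 each, adjusted p = 5.87e-05, 2.91e-06 and 4.47e-08). Rbm43 rose by 0.47, 0.54 and 0.80 (SE 0.12 each), with all 12 injured libraries above the controls. For Rbm43, rhabdomyolysis minus cisplatin (-0.26, adjusted p = 0.083) and the IRI effect minus the cisplatin effect (-0.33, adjusted p = 0.153) were not called. Its cisplatin libraries, at 12.6 to 17.9 CPM, all lay above its IRI libraries, at 10.5 to 12.3.

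Rbm27, which takes part in nuclear RNA decay, ranged from 27.2 to 40.6 CPM in the controls (median 31.1). It read 34.2, 36.1, 36.1 and 38.3 in IRI, 64.9, 83.8, 73.1 and 82.1 in rhabdomyolysis and 46.6, 48.4, 48.0 and 40.5 in cisplatin. IRI lay within the control range, and rhabdomyolysis lay above all other groups. Rbm27 rose by 1.33 and 0.62 in rhabdomyolysis and cisplatin (SE 0.12 each, adjusted p = 5.96e-10 and 5.19e-05), and IRI gave 0.07 (adjusted p = 0.588). Rbm25, a regulator of alternative splicing, rose in the same injuries, by 1.10 in rhabdomyolysis and 0.69 in cisplatin (adjusted p = 1.3e-07 and 7.96e-05), and gave 0.20 in IRI (adjusted p = 0.176).

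**Figure D4:**
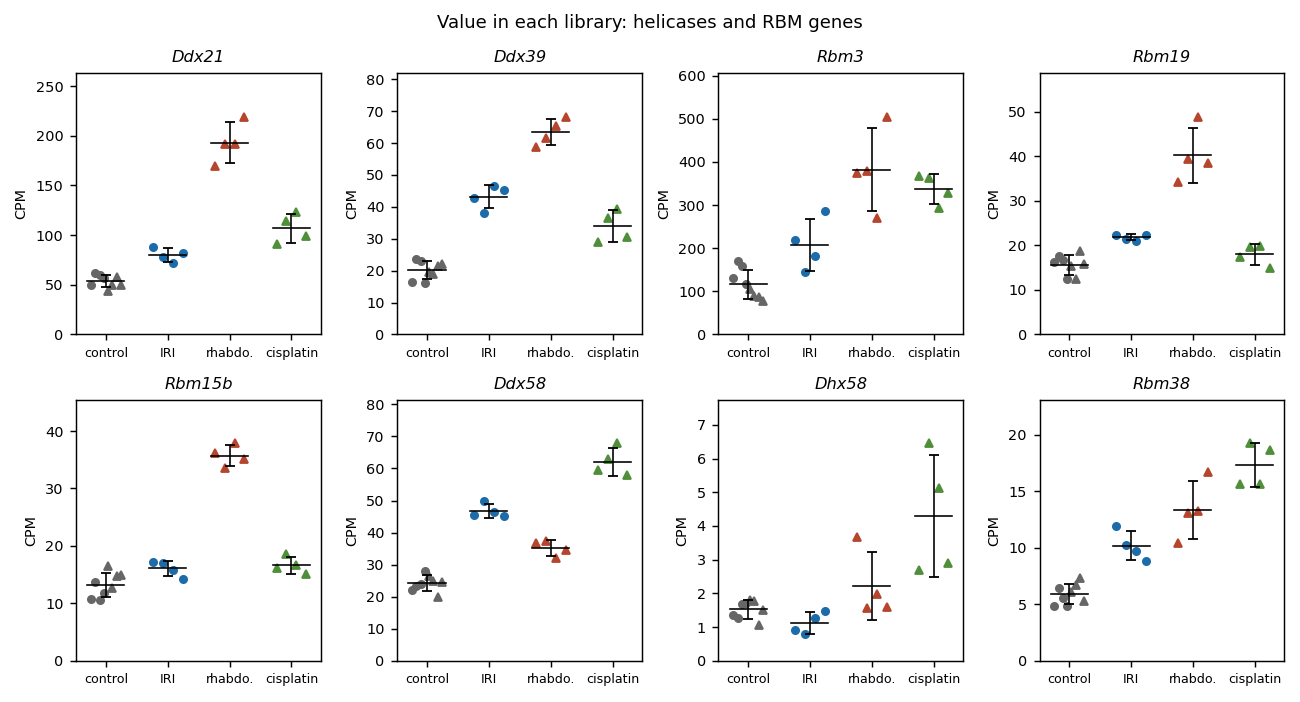
CPM in each library for 8 helicase and RBM genes. Circles are libraries of the identifier range that holds IRI, triangles those of the other range, and black lines and bars are group means ± SD (n = 8 controls, 4 per injury). Ddx21 and Ddx39 are highest in rhabdomyolysis and Ddx58 and Rbm38 in cisplatin. So are Rbm19 and Rbm15b in rhabdomyolysis and Dhx58 in cisplatin, the injuries through which alone they were chosen. Rbm3 controls averaged 144 CPM in the IRI range and 89.96 in the other, a difference that was not called.

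Ddx59 and Rbm4b went the other way. Ddx59, a DEAD-box helicase, ranged from 12.4 to 19.4 CPM in the controls (median 15.3). It read 8.13, 6.53, 8.84 and 7.55 in IRI, 8.22, 6.40, 7.51 and 11.2 in rhabdomyolysis and 12.4, 10.2, 8.71 and 13.7 in cisplatin. IRI and rhabdomyolysis were below every control, and 2 cisplatin libraries were within the control range. It fell by 0.98 in IRI and by 0.75 in rhabdomyolysis (SE 0.16 each, adjusted p = 1.52e-05 and 0.000181). In cisplatin Ddx59 fell by 0.35 (adjusted p = 0.0447), and by 0.59 under quantile normalization (adjusted p = 0.00325). The cisplatin call was lost with 75th percentile scaling (adjusted p = 0.0949), with edgeR (adjusted p = 0.209) or without control 6, 7 or 8 or cisplatin 2 or 3 (adjusted p between 0.0583 and 0.167). Rbm4b, a regulator of alternative splicing, fell by 0.92, 0.37 and 0.60 (SE 0.13 each, adjusted p = 2.83e-06, 0.0118 and 0.000274), and all 12 injured libraries lay below all controls. Reads shared by Rbm4b with its close paralog Rbm4, or by Snrpn with Snrpb, may have been split, and how they were assigned is not given in the sources used here. By GENCODE M21, 16 members also overlap a gene on the opposite strand, among them Ddx39 (Adgre5, 3642 bases), Hnrnpab (Phykpl, 4390 bases) and Rbm4b (Gm21992, 10569 bases). Whether counting used strand is not given either, so those values carry the same uncertainty.

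Of the antiviral sensors, Ddx58 was higher in cisplatin than in rhabdomyolysis, and Dhx58 is in the table through cisplatin alone. Ddx58 (RIG-I) recognises short double-stranded RNA with a 5′ triphosphate and signals for interferon, and Dhx58 (LGP2) modulates that pathway. Both are themselves interferon-stimulated genes. Ddx58 (chr4:40203773-40239828) ranged from 19.9 to 28.0 CPM in the controls (median 24.3). It read 45.6, 49.8, 46.5 and 45.2 in IRI, 36.7, 37.3, 32.1 and 34.5 in rhabdomyolysis and 59.4, 62.9, 67.9 and 57.9 in cisplatin. The 4 groups did not overlap, and the order was control, rhabdomyolysis, IRI and cisplatin. Ddx58 rose by 0.92, 0.54 and 1.34 (SE 0.11 each, adjusted p = 1.13e-07, 5.7e-05 and 1.59e-10).

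Dhx58 had the fewest reads of the 29. It ranged from 1.07 to 1.81 CPM in the controls (median 1.60) and read 0.918, 0.799, 1.26 and 1.49 in IRI. It read 3.69, 1.58, 2.00 and 1.59 in rhabdomyolysis and 2.68, 6.46, 5.14 and 2.91 in cisplatin. Cisplatin lay above every control, rhabdomyolysis overlapped both, and 2 IRI libraries lay below the controls. The reads behind these values were 8 to 13 in controls, 6 to 13 in IRI, 14 to 39 in rhabdomyolysis and 23 to 46 in 3 cisplatin libraries. Dhx58 rose by 1.01 in cisplatin (SE 0.22, adjusted p = 0.000248), and this was 0.66 under quantile normalization (adjusted p = 0.0071). The pseudocount of 1 understates a change at this level. Rhabdomyolysis gave 0.30 (adjusted p = 0.192), and edgeR on recovered reads gave 0.71 (adjusted p = 0.0457). Replicate 1 held 39 reads and the others 14 to 21, and without it the limma value was 0.11 (adjusted p = 0.64). IRI gave -0.25 (adjusted p = 0.297), and quantile normalization gave -0.50 (adjusted p = 0.0402).

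Of 16 listed interferon-stimulated markers, 8 are in the table, and 1 was called higher in IRI, 4 in rhabdomyolysis and 8 in cisplatin. Over all tested genes, 40.6%, 48.8% and 47.8% were called higher. Dhx58 was called in cisplatin alone. The markers entered the table by the same 1.5-fold rule, which favoured calls in the injury through which each entered. These 8 markers summed to 42.8 to 68.0 CPM in controls, 55.3 to 64.6 in IRI, 45.5 to 121 in rhabdomyolysis and 188 to 294 in cisplatin. In IRI, where Ddx58 was above every control, the marker sum lay within the control range. The part of interferon signalling in the Ddx58 and Dhx58 values was not tested.

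The promoters of Ddx58 and Rbm43 are shown because they hold the core of the interferon-stimulated response element, GAAA followed after any 2 bases by another GAAA. Capitals mark this core, here present as its reverse complement, and the window is drawn as above. The Ddx58 window is chr4:40239776-40240075 and the Rbm43 window shown is chr2:51935114-51935413, both on the minus strand. Rbm43 has another window, chr2:51934595-51934894, which holds CACGTG and not this core.
Ddx58: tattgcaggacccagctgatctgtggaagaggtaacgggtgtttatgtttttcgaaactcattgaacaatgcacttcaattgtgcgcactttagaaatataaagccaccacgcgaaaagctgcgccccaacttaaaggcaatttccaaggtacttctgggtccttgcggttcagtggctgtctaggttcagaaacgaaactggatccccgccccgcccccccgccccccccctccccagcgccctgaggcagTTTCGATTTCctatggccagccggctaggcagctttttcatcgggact
Rbm43: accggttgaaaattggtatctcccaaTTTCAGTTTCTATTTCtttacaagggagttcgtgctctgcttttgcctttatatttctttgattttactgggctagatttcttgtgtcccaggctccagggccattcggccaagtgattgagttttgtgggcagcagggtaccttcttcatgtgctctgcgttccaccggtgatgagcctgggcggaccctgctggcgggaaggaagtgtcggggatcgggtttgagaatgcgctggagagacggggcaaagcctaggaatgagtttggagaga
In Ddx58 the core begins at position 3, counting the start base as 1. In Rbm43 there are 2 overlapping copies that begin 224 and 218 bases before the start. The core, searched on both strands, occurs in 3.43% of all windows, and these 2 genes are the only ones of the 23 members with a window that hold it. The TATA box TATAAA was found in windows of 6 members and in 13.6% of all windows, and the NRF1 site (GCGC, then AT, then GCGC) in none of the members' and in 0.966% of all.

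Rhabdomyolysis and cisplatin were also compared directly, within 1 identifier range. In rhabdomyolysis, 15 members were higher and 5 lower, where 54.1% of all tested genes were called (21.4% higher, 32.7% lower). The 15 include 5 of the 6 genes that entered the table through rhabdomyolysis alone, and the 5 include Dhx58, which entered through cisplatin alone. Among the other 22 members, 10 were higher and 4 lower. Leaving out 1 library gave 12 to 16 higher among the 29, with 12 without rhabdomyolysis 2, and 3 to 5 lower, with 3 without rhabdomyolysis 1, 2 or 3 or cisplatin 2 or 4. Ddx39 differed by 0.90 (SE 0.13, adjusted p = 6.77e-06) and Ddx21 by 0.85 (SE 0.12, adjusted p = 2.18e-06). Rbm19 and Rbm15b stood further apart, at 1.12 (SE 0.14) and 1.06 (SE 0.12), as genes chosen through rhabdomyolysis. Lower in rhabdomyolysis were Ddx58 (-0.80, adjusted p = 1.62e-06), Snrpn (-0.54, adjusted p = 0.0104), Ddx59 (-0.40, adjusted p = 0.0452), Rbm38 (-0.36, adjusted p = 0.0453) and Dhx58 (-0.70, SE 0.22). The split depended on scaling: it was 19 higher and 3 lower with 75th percentile scaling and with quantile normalization. Over all tested genes the share of calls that were higher moved from 39.6% to 51.7% with quantile normalization.

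IRI was compared with the other injuries by the signed difference of their changes from matched controls, so a negative value means a smaller rise or a deeper fall in IRI. Against rhabdomyolysis the difference was negative for 15 members and positive for 3, where 52.0% of all tested genes were called (28.6% positive, 23.4% negative). Leaving aside the 7 genes that entered the table through 1 injury, 10 were negative and 3 positive of 22. Rbm3 differed by -1.54 (SE 0.26, adjusted p = 5.86e-05) and Ddx21 by -1.44 (SE 0.16, adjusted p = 5.2e-07), both with the smaller rise in IRI. Rbm27, chosen through rhabdomyolysis, differed by -1.26 (SE 0.17). Rbm4b, which fell in both, fell further in IRI. Of the 3 positive ones, Lsm11 (0.62, SE 0.20, adjusted p = 0.0115) and Ddx58 (0.38, SE 0.15, adjusted p = 0.0396) rose more in IRI, and Snrpn fell in rhabdomyolysis and was not called in IRI. With all 8 controls pooled the Rbm3 difference was -0.88 (adjusted p = 0.00166). Pooling ended the calls of Lsm11 (0.18, adjusted p = 0.328) and of Rbm4b, which went from -0.55 to -0.27 (adjusted p = 0.0956).

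Against cisplatin the difference was negative for 8 members and positive for 1, a share close to the 30.3% of all tested genes that were called (13.5% positive, 16.8% negative). Without the 7 genes that entered through 1 injury, 6 were negative and 1 positive of 22. Rbm3 differed by -1.40 (SE 0.26, adjusted p = 0.000358), with the smaller rise in IRI. Lsm11 differed by 0.89 (SE 0.20, adjusted p = 0.00155). Dhx58, chosen through cisplatin, differed by -1.26 (SE 0.31). Ddx59 differed by -0.63 (SE 0.23, adjusted p = 0.0436), with the deeper fall in IRI. With the 8 controls pooled, 12 members were negative and 3 positive, where 21.1% of all tested genes were called positive. Pooling gave -0.73 for Rbm3 (adjusted p = 0.0108) and 0.45 for Lsm11 (adjusted p = 0.0283). It also moved Prpf38a from -0.53 to -0.32 and Rbm27 from -0.55 to -0.33. Under quantile normalization 2 members were positive and 6 negative, and over all tested genes the share of calls that were positive moved from 44.5% to 55.6%.

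**Figure D5:**
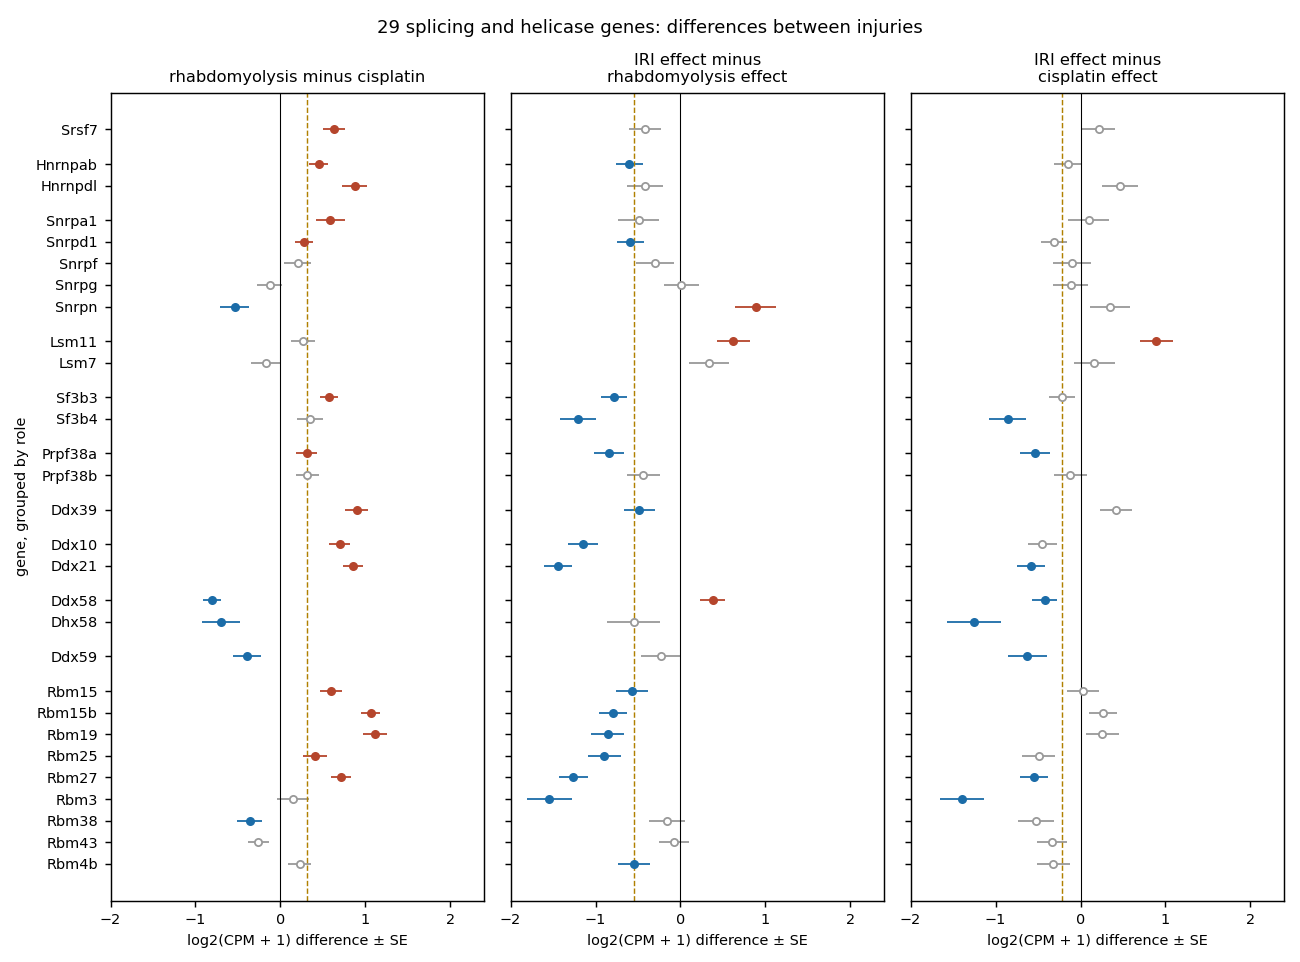
Differences between injuries for the 29 genes. Points are log2(CPM + 1) differences and bars are SE. Red is called higher, blue called lower and open grey not called at a limma adjusted p under 0.05, and dashed lines are the medians of the 29 (0.32, -0.55 and -0.21). Without the 7 genes that entered the table through 1 injury, 15 of 22 points lie right of 0 for rhabdomyolysis minus cisplatin and 17 of 22 left of 0 for the IRI effect minus the rhabdomyolysis effect (medians 0.27 and -0.45).

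Other genes of RNA processing were read from lists. Those in the table are also there through a 1.5-fold change in some injury. Of all tested genes, 40.6%, 48.8% and 47.8% were called higher in IRI, rhabdomyolysis and cisplatin, and 40.1%, 46.5% and 44.0% lower. Of 45 further spliceosome genes, 3 are in the table, of which 2 rose in IRI and all 3 in both other injuries. U2af1, which reads the 3′ splice site, rose by 1.18 and 0.66 in rhabdomyolysis and cisplatin (SE 0.17 each), with 0.21 in IRI (adjusted p = 0.268). Of 15 splicing kinases and SR-related genes, Tra2a (0.59, 1.19 and 0.92) and Rnps1 (0.45, 1.06 and 0.88) are in the table, and both rose in each injury. Of 11 genes of the SMN complex, which loads Sm rings onto snRNA, 3 are in the table, with 2 called higher in IRI and 3 in each other injury. Smn1 rose by 0.96 and 0.63 in rhabdomyolysis and cisplatin, with 0.21 in IRI (adjusted p = 0.187), and Gemin4 rose by 0.61, 0.57 and 0.75.

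Cell-type splicing regulators were mixed: of 25 listed, 8 are in the table, with 5 higher and 1 lower in IRI, 6 and 2 in rhabdomyolysis and 5 and 2 in cisplatin. Rbfox1, which directs tissue-specific exons, averaged 5.63 CPM in controls and fell by 1.59, 1.76 and 2.43 (SE 0.21 each, adjusted p = 6.71e-07, 5.42e-08 and 5.65e-10). Ptbp3, a polypyrimidine tract binding protein, rose by 1.12, 1.47 and 1.38 (SE 0.16 each, adjusted p = 1.73e-06, 1.03e-08 and 4.69e-08). Of 19 genes of the exon junction and export machinery, Magohb alone is in the table, and it rose by 0.97 and 0.64 in rhabdomyolysis and cisplatin, with 0.30 in IRI (adjusted p = 0.109). Snrnp70, the U1 protein outside the symbol rule, rose by 0.47, 0.99 and 0.50, and Snrnp25, of the minor spliceosome, fell by 0.48, 0.67 and 0.41; both were looked at after their values were known.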

How the data were processed

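RNA sequencing of kidney cortex from 20 mice was deposited as 1 table of 6025 genes in CPM, per the values. The submitters' processing notes name FastQC, Bowtie2 2.1.0, RSEM 1.2.15, edgeR, GRCm38 and mm10 without roles, so the steps behind the deposited CPM are not given in the sources used here. Members and lists were chosen with earlier results of these data known.

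The 5672 genes averaging 1 CPM or more over the libraries (353 were left out) were tested on log2(CPM + 1) with limma 3.58.1 (R 4.3.3, mean-variance trend, Benjamini-Hochberg over all tested genes, threshold 0.05). All 20 libraries entered as 5 cells, with controls split by identifier range. Between the controls of the 2 ranges, 4 members and 454 of the 5672 tested genes had an unadjusted limma p under 0.05. None had an adjusted p under 0.05. Per the series design, replicates are biological. Whole reads, recovered in 19 libraries, went into edgeR 4.0.16 as an alternative, leaving out cisplatin 2. Both tests were checked on simulated data.

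Up to 3 members per role by median change, the 3 largest called differences between injuries, the antiviral sensors and up to 2 genes per list were given in detail; 1 listed gene is not reported here. Gene positions are from GENCODE M21 and promoters from RefSeq. Alternatives were the pseudocount, the minimum mean, scaling, the trend, pooled controls, a replicate block and leaving out each library.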

Additional observations from a re-analysis of the deposited data

Results flagged for a closer look

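In 2 of 116 gene and group combinations, 1 library stood apart from its group, where chance gives about 5.8. Hnrnpdl read 150.3 CPM in rhabdomyolysis replicate 4 and 106 in the next highest, a gap that is 0.91 of the group's range. Sf3b3 read 71.8 CPM in IRI replicate 2 and 65.4 in the next highest, a gap of 0.903 of the range.

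Differences between injuries passed the limma test for 20 members in rhabdomyolysis minus cisplatin, for 18 in the IRI effect minus the rhabdomyolysis effect and for 9 in the IRI effect minus the cisplatin effect, where 54.1%, 52.0% and 30.3% of all tested genes passed. In the first, Rbm19 differed by 1.12, Rbm15b by 1.06 and Ddx39 by 0.90 on the log2(CPM + 1) scale. In the second, Rbm3 differed by -1.54, Ddx21 by -1.44 and Rbm27 by -1.26. In the third, Rbm3 differed by -1.40, Dhx58 by -1.26 and Lsm11 by 0.89. Rbm19, Rbm15b and Rbm27 entered the table through rhabdomyolysis alone and Dhx58 through cisplatin alone, which favoured their differences. The counts include these and other genes that entered through 1 injury. Among the other 22 members, 10 were higher and 4 lower in the first comparison, 3 and 10 in the second, and 1 and 6 in the third.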

How the results depend on the processing

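Over 81 single-gene results and 1364 alternatives, 1327 kept direction and call, 28 kept direction but lost the call, 5 gained it and 4 reversed. The reversals, none of them called with the main settings, were Lsm11 in cisplatin (-0.16), Ddx10 in IRI (-0.052) and Rbm15b in cisplatin (-0.038) under quantile normalization, and Rbm27 in IRI without control 3 (-0.029, with 0.15 the highest value on leaving out 1 library). All 8 single-gene results that were not called moved by over 1.5 times or reversed under some alternative. Members lower in rhabdomyolysis than in cisplatin numbered 5, against 3 with 75th percentile scaling, 3 with quantile normalization, 2 with edgeR and 3 with the replicate block. Leaving out 1 library gave 3 to 5, with 3 without rhabdomyolysis 1, 2 or 3 or cisplatin 2 or 4. Members with a positive IRI minus cisplatin effect numbered 1, against 2 with quantile normalization and 3 with pooled controls, and 1 to 2 with 1 library left out (2 without control 2). The cause was not tested. Pooling the controls raised the members with a negative one from 8 to 12. Leaving out 1 library gave 19 to 21 members higher in IRI, 24 to 25 in rhabdomyolysis and 22 to 23 in cisplatin. Quantile normalization shifted the median of all tested genes by -0.17 in rhabdomyolysis, -0.27 in cisplatin and 0.12 in their difference, and 75th percentile scaling shifted it by 0.10 in IRI and 0.13 in rhabdomyolysis. Depth limits Dhx58 most, with 6 to 46 reads.

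Replicate numbers did not pair the samples: deviations of same-numbered samples correlated at -0.112 to 0.176 between controls and IRI and at -0.207 to 0.325 between rhabdomyolysis and cisplatin. With the replicate block, 20 members were higher in IRI instead of 21 (Prpf38a was lost), and 14 instead of 15 were higher in rhabdomyolysis than in cisplatin. No paired analysis was possible for rhabdomyolysis or cisplatin against controls because the groups share no numbers. Counts over the 22 genes that met the 1.5-fold in more than 1 injury were added after seeing the data and lay within 1.5 times those over the 29.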
